A study of Mus musculus with 18 samples.

Results

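An inhibitor of CD38 given to normal macrophages and the loss of the gene were set side by side under MSU crystals. The comparison takes 6 of the 18 libraries of a series on mouse bone marrow-derived macrophages (BMDMs): 3 of WT + MSU + apigenin and 3 of CD38KO + MSU, grouped by the library titles and the matching column names of the count table. FPKM, a read density per length and depth, had to reach 1 in 3 or more libraries, which 12025 of 55450 genes did, and all of them were compared. Cells of every group grew in L929-conditioned medium from the marrow of WT or CD38KO mice, with 24 hours of priming by GM-CSF (20 ng/ml). The study describes its mice as male or female and C57BL6/J in background, and the paper does not give the sex behind each library. WT + MSU + apigenin cells then received apigenin (25 µM) together with the crystals (0.2 mg/ml, 6 hours), and CD38KO + MSU cells received the crystals alone. The same contrast without crystals was taken from WT + apigenin and CD38KO non-treated cells, and the response to crystals from WT + MSU and WT non-treated cells, with 3 libraries each. The CD38KO allele is constitutive, so those cells lacked CD38 before differentiation, whereas the drug was present for hours only. No group combined the knockout with apigenin. Drug and genotype therefore differ together in every difference between WT + MSU + apigenin and CD38KO + MSU, and that contrast alone cannot separate them.

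CD38 is a membrane ectoenzyme that hydrolyses NAD and also makes the calcium messengers cyclic ADP-ribose and NAADP. Monosodium urate (MSU) crystals, which cause gout, are taken up by macrophages and engage innate receptors, kinase cascades and the NLRP3 inflammasome, the caspase-1 platform that matures IL-1β. Apigenin is a plant flavone that inhibits the NADase activity of CD38 and, as flavones do, also binds protein kinases, the aryl hydrocarbon receptor and other proteins. A knockout removes the CD38 protein as well as its activity, whereas blocking the activity need not remove the protein. For apigenin the paper also reports less CD38 protein in MSU-treated BMDMs, by Western blot at a later time than the RNA.

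Each level is in CPM, which sets a count against the TMM-normalised total of its library's tested genes, and levels follow the order of replicates 1, 2 and 3. Differences are log2 fold changes (log2FC) of WT + MSU + apigenin minus CD38KO + MSU ± SE, by the quasi-likelihood method of edgeR fitted to all 18 libraries together, with n = 3 libraries a group. A call of higher or lower needs an adjusted p (Benjamini-Hochberg, over all tested genes) below 0.05 and at least a 2-fold change, a log2FC of 1, and higher or lower always means in WT + MSU + apigenin.

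Total counts were 51058336 to 76708083 in the 3 WT + MSU + apigenin and 68766678 to 74140098 in the 3 CD38KO + MSU libraries. Several properties of the libraries moved with the groups. Which of the 6 apigenin libraries received MSU is given differently by their titles and by another field of the labels, the treatment tag. With the tag in place of the titles, 4128 of the 4975 calls of the comparison were kept and 0 became calls the other way. WT replicates 1 and 2 in all 4 WT groups held transcripts of Ifi202b, Gbp2b and Cd1d2, genes that C57BL/6 mice lack, hardly express or carry in disrupted form. In WT + MSU + apigenin, Gbp2b stood at 12.7 and 55.0 CPM in replicates 1 and 2 and at 0.489 CPM in replicate 3, and at no more than 0.994 CPM in CD38KO + MSU. Replicate 3 of the WT groups was thus near the CD38KO libraries in these 3 transcripts and apart from replicates 1 and 2. Xist, expressed from the inactive X chromosome of females, was at 56.8, 0.167 and 83.8 CPM in WT + MSU + apigenin and at no more than 0.0492 CPM in CD38KO + MSU. In Xist, replicates 1 and 3 were the ones apart from CD38KO + MSU. The CD38KO non-treated libraries had no more than 0.116 CPM either, so no CD38KO library held Xist at the level of those replicates. WT replicate 1 held Xist in WT + MSU too (67.8 CPM), but hardly in WT non-treated (0 CPM) or WT + apigenin (0.0734 CPM). The MSU gene sets and the difference with and without crystals thus also set a replicate 1 with Xist against a replicate 1 without it. The part of this in those results was not tested. Counts that move are given below also with replicate 3 as the only library of the WT groups compared, where a lone library is assumed to vary as the other groups do.

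Both groups carried the macrophage markers, with a summed level of 47645 to 60867 CPM against 10749 to 21202 CPM, and none of the 8 was at 0. Of the 8, 4 were called higher: Lyz2 (2.20 ± 0.32), Csf1r (1.46 ± 0.25), Mertk (1.70 ± 0.28) and the F4/80 gene Adgre1 (1.39 ± 0.27). Fibroblast markers summed to 2160 to 7617 CPM in WT + MSU + apigenin and 195 to 421 CPM in CD38KO + MSU, and 6 of 7 tested were called higher. The same sum was 641 to 3176 CPM in WT non-treated and 875 to 4613 CPM in WT + MSU cells. Against WT + MSU, 4 of the 7 were called below it in CD38KO + MSU (median log2FC −2.76). In WT + MSU + apigenin 0 were called against WT + MSU in either direction (median 0.96). The collagen gene Col1a1 was at 2303, 3224 and 722 CPM against 79.6, 64.9 and 127 CPM (4.52 ± 0.87, adjusted p = 0.000514), with replicate 3 the lowest of the WT libraries. Endothelial markers (38.5 to 139 CPM against 7.79 to 15.8 CPM) had 6 of 7 tested called higher, and neutrophil markers (21.7 to 341 CPM against 15.8 to 23.8 CPM) 4 of 8. The neutrophil sum of replicate 3 (21.7 CPM) lay inside the range of CD38KO + MSU. Dendritic cell markers (673 to 1178 CPM against 405 to 436 CPM) had 1 of 3 tested higher and 1 lower, mast cell, basophil and eosinophil markers (11.2 to 28.8 CPM against 9.37 to 13.1 CPM) 1 of 2 higher, and no lymphocyte or erythroid marker passed the FPKM filter. In bulk RNA, more cells of a type and more RNA per cell cannot be told apart.

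**Figure D1:**
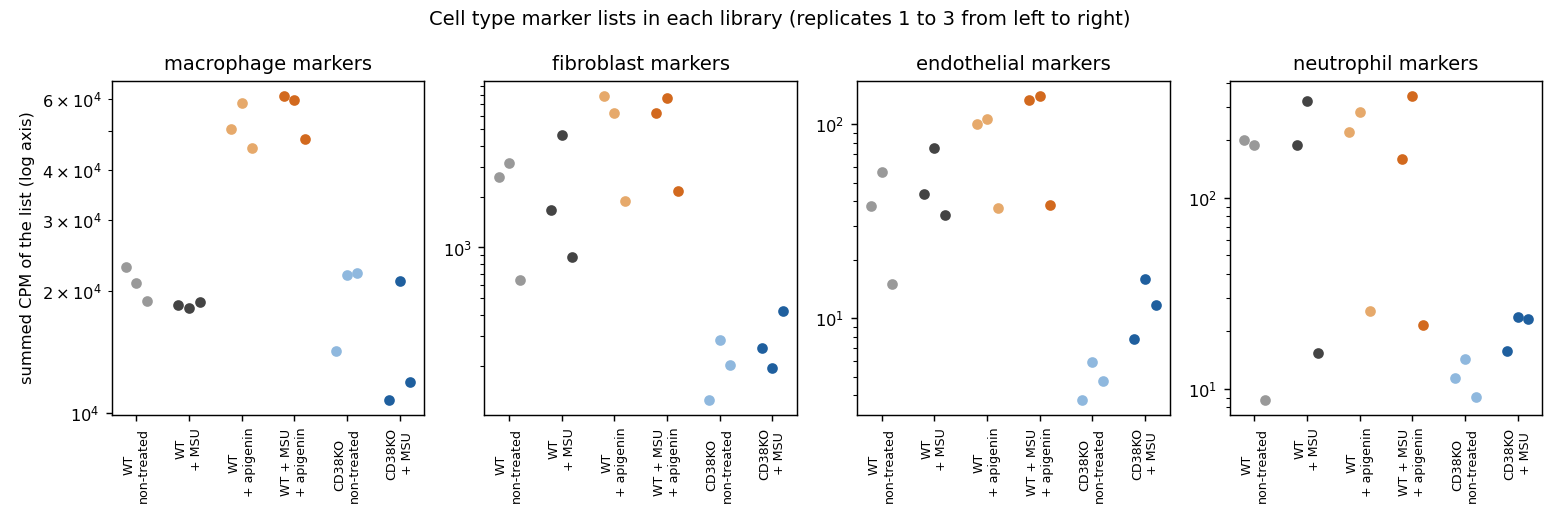
Summed level in CPM (log axis) of the macrophage, fibroblast, endothelial and neutrophil marker lists in each of the 18 libraries, replicates 1 to 3 from left to right in each group. Fibroblast markers lie at 2160 to 7617 CPM in WT + MSU + apigenin and at 195 to 421 CPM in CD38KO + MSU, and the neutrophil sum separates WT replicates 1 and 2 from replicate 3.

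Drug and knockout differed widely. Of 12025 tested genes, 2003 (16.7%) were called higher and 2972 (24.7%) lower in WT + MSU + apigenin than in CD38KO + MSU, 41.4% in either direction, and the libraries of the 2 groups did not overlap for 7518 genes (62.5%). For 2485 genes (20.7%) the 95% interval of the log2FC lay within −1 to 1, so that a difference of more than 2-fold was outside it. With replicate 3 as the only WT library, 1396 genes were called higher and 2410 lower. The direction of the calls depended on the scaling. The TMM factors were 0.669 to 0.757 in WT + MSU + apigenin and 1.06 to 1.10 in CD38KO + MSU, and with plain library totals in their place the median log2FC over all genes was −0.63 and not −0.05, so that 776 genes were called higher and 4434 lower and the share of higher genes among the calls fell from 40.3% to 14.9%. All differences below are under TMM, relative to a median near 0. Counts of called genes in a list stand against the 16.7% higher and 24.7% lower of all tested genes.

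Against WT + MSU, which serves both, WT + MSU + apigenin had 5275 genes called (43.9%) and CD38KO + MSU 405 (3.37%). Most of the difference between drug and knockout was there without crystals. WT + apigenin had 1931 genes (16.1%) called higher and 2719 (22.6%) lower than CD38KO non-treated cells, in libraries that the comparison under MSU does not use. Both contrasts called 1360 genes higher, 67.9% of those higher under MSU and 70.4% of those higher without crystals. They called 2270 genes lower, 76.4% and 83.5% of the 2 lists, and 15 in opposite directions. Across the 12025 genes the 2 sets of log2FC correlated at r = 0.817, a description over genes that share libraries and scaling. The difference between the 2 contrasts itself was called for 62 genes (0.516%), 11 higher (0.0915%) and 51 lower (0.424%) under crystals.

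**Figure D2:**
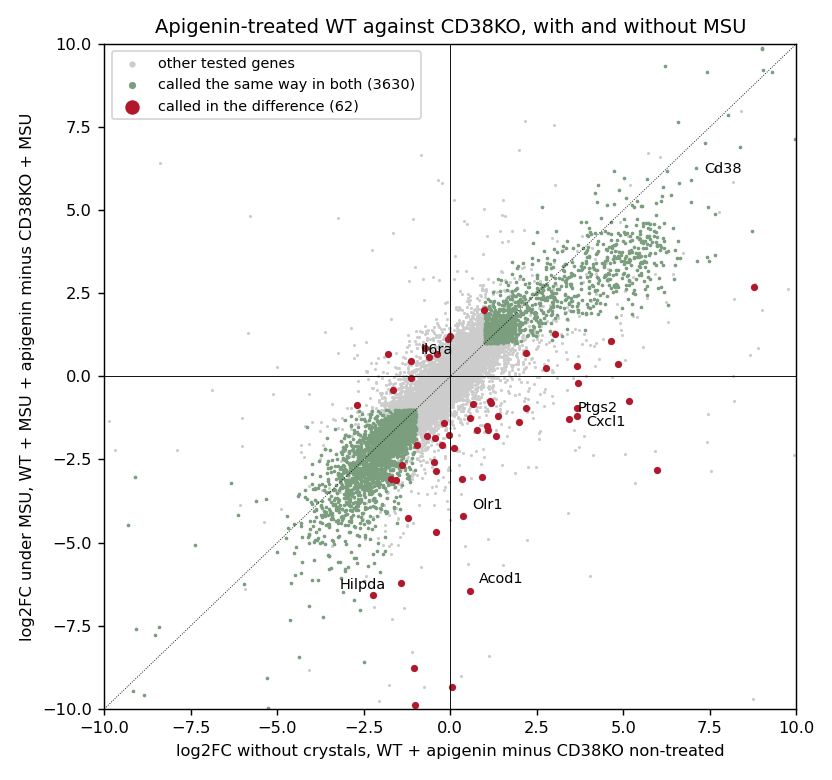
The log2FC of apigenin-treated WT minus CD38KO BMDMs for 12025 genes, without crystals on the x axis and under MSU on the y axis. Green points are the 1360 genes called higher and the 2270 called lower in both, red points the 62 genes called in the difference of the contrasts, most of them under the dotted line of equal values, and 40 genes lie outside the axes.

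Cd38 itself separated the groups, with no overlap. It stood at 41.0, 86.1 and 93.4 CPM in WT + MSU + apigenin and 0.639, 1.17 and 1.04 CPM in CD38KO + MSU (6.27 ± 0.45, adjusted p = 1.66e-07), and at a mean of 49.2 CPM in WT + MSU, so apigenin-treated cells held the transcript of the drug's target. Of 20 tested NAD-consuming enzyme genes, 3 were higher and 8 lower (median log2FC −0.67), the higher ones being Cd38 and the deacetylase genes Sirt2 and Sirt3. Sirt3, whose product acts in mitochondria, was at 11.3, 10.7 and 7.37 CPM against 3.56, 2.65 and 3.75 CPM (1.56 ± 0.30, adjusted p = 0.000533). Sirt1, which encodes the nuclear deacetylase, was lower (−2.97 ± 0.74, adjusted p = 0.00329), but CD38KO + MSU replicate 3 (3.18 CPM) lay within the range of WT + MSU + apigenin (1.78 to 7.35 CPM). The ADP-ribosyltransferase genes Parp9 (−2.61 ± 0.43) and Parp14 (−2.77 ± 0.50), both interferon-inducible, were lower without overlap. Bst1, the CD38 paralogue next to it in the genome, was at a mean of 67.2 CPM against 41.9 CPM (0.68 ± 0.13), under the fold threshold.

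Of 12 tested NAD synthesis genes, 2 were higher and 4 lower (median −0.34). Nmnat1, the nuclear NAD-forming adenylyltransferase, was at 1.14, 1.77 and 0.821 CPM against 8.29, 9.58 and 9.74 CPM (−2.89 ± 0.53, adjusted p = 0.000355). The gene of the mitochondrial NAD transporter Slc25a51 was also lower (−1.54 ± 0.31). Kmo, of the kynurenine branch of de novo synthesis, was higher (1.92 ± 0.58, adjusted p = 0.0116), as was Nnmt, which methylates nicotinamide (3.02 ± 1.00). Nnmt is also high in fibroblasts, whose markers were higher in the same libraries, and the part of those cells in its value was not tested. With replicate 3 as the only WT library, 0 of the 12 genes were higher and 1 lower.

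Genes that crystals induced in WT cells were mostly lower with the drug than in the knockout. MSU raised 244 tested genes (2.03%) in WT cells and lowered 186 (1.55%), by a contrast of WT + MSU with WT non-treated libraries whose spread and scaling come from the fit of all 18. Of the 244 raised genes, 139 (57.0%) were lower with the drug than in the knockout, against 24.7% of all tested genes, 7 were higher and 98 were not called, and their median log2FC was −1.33. Without crystals the same 244 genes had 56 higher and 60 lower, with a median of −0.05. With WT replicate 3 alone, 104 of the 244 were lower and 8 higher (median −1.21). Of the 186 genes that MSU lowered, 39 were higher and 47 lower (median −0.03), where all genes had 16.7% and 24.7%.

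Osm, the gene of the IL-6 family cytokine oncostatin M, was at 0.487, 0.626 and 1.72 CPM with the drug and 54.1, 123 and 99.2 CPM in the knockout (−6.59 ± 0.68, adjusted p = 2.6e-06). Untreated WT cells had a mean of 21.3 CPM and WT + MSU cells one of 186 CPM, so the drug group lay below the untreated WT mean and the knockout group between. Acod1, which encodes the itaconate-forming enzyme of activated macrophages, was at 5.08, 2.46 and 2.86 CPM against 104, 689 and 110.2 CPM (−6.44 ± 0.96, adjusted p = 6.33e-05), where CD38KO + MSU replicate 2 was far above the other 2. Hilpda, a lipid droplet protein gene that inhibits triglyceride lipase, was at 1.35, 0.835 and 1.64 CPM against 67.1, 92.8 and 128 CPM (−6.23 ± 0.51, adjusted p = 4.42e-07). All 3 of these genes were separated without overlap. Flrt3, an adhesion protein gene, followed them (−5.33 ± 0.79, adjusted p = 5.71e-05). Chac1, the glutathione-degrading enzyme of the ATF4 pathway, had no count in the 3 drug libraries and 3.25, 2.19 and 3.54 CPM in the knockout, at least 36.9-fold lower against a floor of 3 counts a library.

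Il1b, the gene of the cytokine that drives gout flares, was lower with the drug, but by less than these. It was at 3.43, 5.74 and 4.73 CPM against 9.42, 17.3 and 18.3 CPM (−1.69 ± 0.63, adjusted p = 0.0312), and both groups lay far below the mean of 124 CPM in WT + MSU. Without crystals the order was the opposite, at a mean of 4.21 CPM in WT + apigenin and 0.714 CPM in CD38KO non-treated (2.55 log2FC, adjusted p = 0.0046). The change of order with crystals had an adjusted p of 0.0584 and was not called, and the Il1b call itself was lost in 6 of 32 other settings. Lif, an IL-6 family cytokine, had the same orders, lower under crystals (−1.63 ± 0.62, adjusted p = 0.0354) and higher without (2.59, adjusted p = 0.0046), and its change was not called either (adjusted p = 0.0628). Il10, the anti-inflammatory cytokine gene, had no count in the drug libraries and 3.37, 1.201 and 3.58 CPM in the knockout, at least 33.5-fold lower. Of the 17 tested cytokine genes, 4 were lower and 2 higher under crystals (median −0.80), and 2 lower and 5 higher without (median 0.86). The shares under crystals were 23.5% lower and 11.8% higher, against 24.7% and 16.7% of all tested genes. By the treatment tag the counts under crystals were 9 lower and 1 higher, and with WT replicate 3 alone 2 lower and 2 higher.

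Of the neutrophil-attracting chemokine genes, Cxcl5 was called lower (−1.20 ± 0.49, adjusted p = 0.049), and Cxcl1 and Cxcl3 were not called. Cxcl1 was at 5.46, 19.2 and 11.9 CPM with the drug and 18.2, 26.03 and 27.0 CPM in the knockout (−0.96 ± 0.53, adjusted p = 0.135, not called, 95% interval −2.10 to 0.18), with 1 of the drug libraries inside the range of the knockout. Cxcl3 was at 8.06, 16.7 and 17.9 CPM against 19.0, 23.3 and 29.5 CPM (−0.75 ± 0.41, adjusted p = 0.125), without overlap but not called. Without crystals both were far higher with the drug, by 3.67 and 5.17 on the log2 scale, where the knockout held means of 0.327 and 0.499 CPM. Of 22 tested chemokine genes, 5 were higher and 6 lower under crystals (median −0.09, 0.05 with upper-quartile scaling), against 2 higher and 9 lower by library totals (median −0.68), and 13 higher and 3 lower without (median 2.93). Cxcl12, the stromal chemokine, had the largest log2FC of them, at 82.0, 116 and 86.2 CPM against 5.003, 4.44 and 4.14 CPM (4.39 ± 0.47). The drug libraries also held more fibroblast markers, with sums of 6219, 7617 and 2160 CPM, and the part of fibroblasts in the Cxcl12 value was not tested. The monocyte attractant Ccl7 (−3.13 ± 0.63), the macrophage chemokine Ccl4 (−3.05 ± 0.77) and the interferon-induced Cxcl10 (−2.96 ± 0.86) were lower. With WT replicate 3 alone, 2 chemokine genes were higher and 1 lower.

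**Figure D3:**
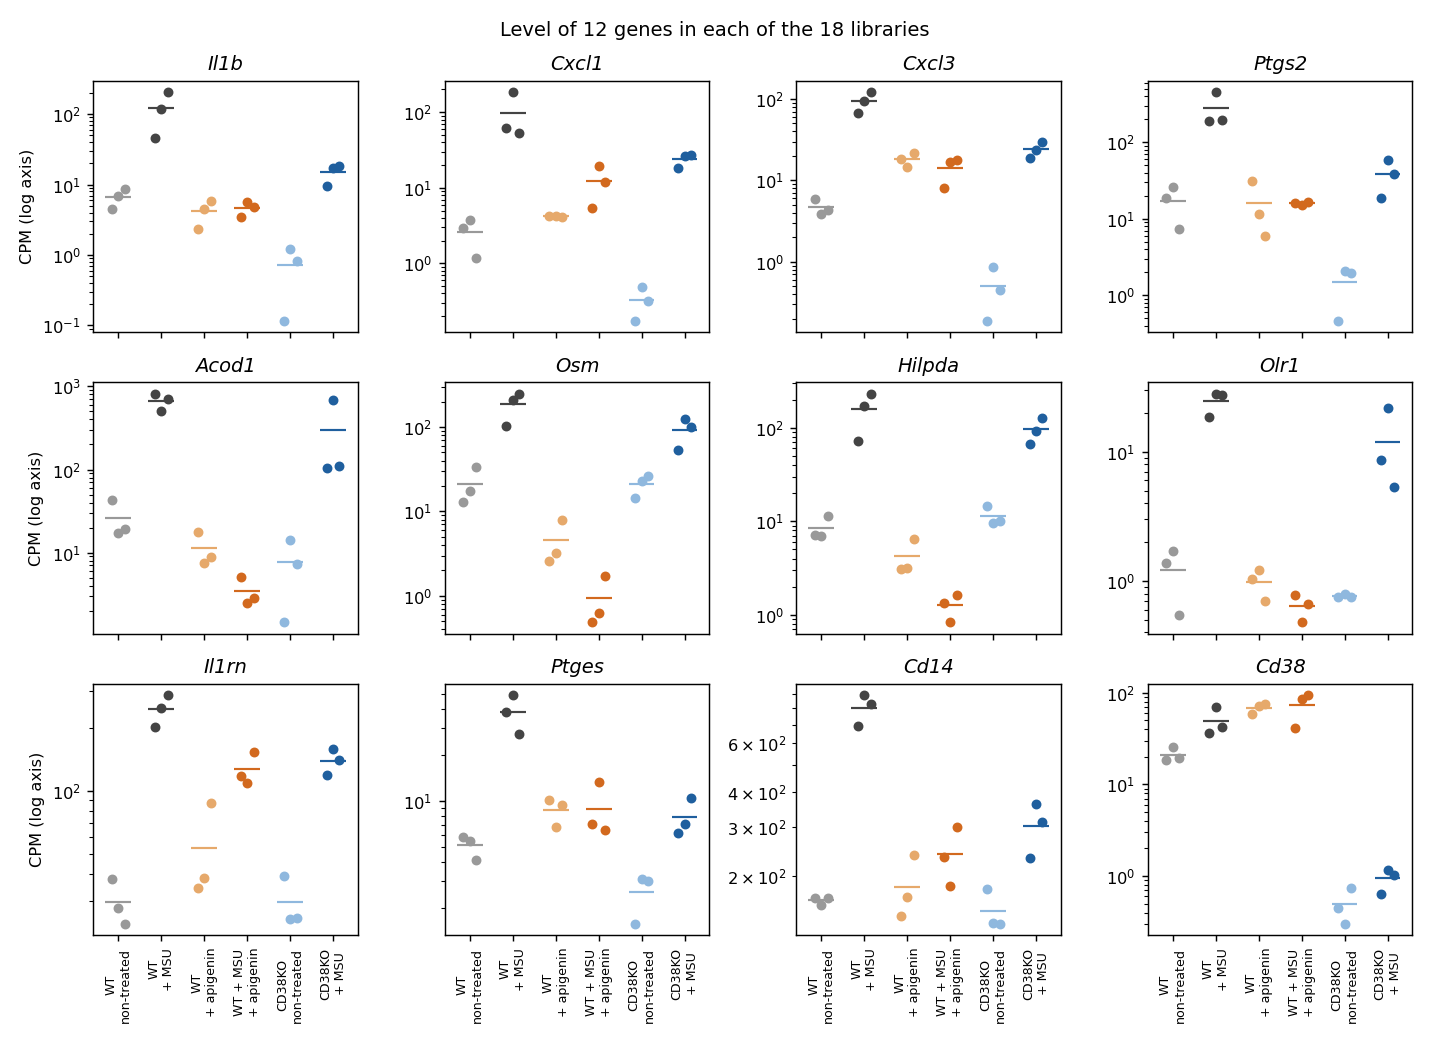
Level in CPM (log axis) of 12 genes in each of the 18 libraries, points for libraries and lines for group means. Osm, Hilpda, Acod1 and Olr1 lie lower in WT + MSU + apigenin than in CD38KO + MSU, Il1rn, Ptges and Cd14 lie at like levels in both, and Cxcl1, Cxcl3 and Ptgs2 are lowest in CD38KO non-treated cells.

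Crystal-induced genes at like levels in both groups were 25 of the 244, by an interval within −1 to 1. This share was below that of all tested genes, of which 2485 of 12025 (20.7%) had such an interval. Il1rn, which encodes an antagonist of the IL-1 receptor, was at 118, 109 and 152 CPM and 119, 159 and 140.0 CPM (log2FC −0.14 ± 0.32), in overlapping ranges below the WT + MSU mean of 245 CPM. Ptges, the prostaglandin E synthase gene, was at 7.03, 13.3 and 6.45 CPM and 6.16, 7.10 and 10.4 CPM (0.18 ± 0.34). The LPS co-receptor gene Cd14 (−0.33 ± 0.22), the hexosamine enzyme gene Uap1 (0.06 ± 0.32) and the small GTPase gene Nras (−0.09 ± 0.38) were the other 3 with the largest response to MSU in WT cells. Sod2, the mitochondrial superoxide dismutase, was at 167, 275 and 275 CPM and 157, 317 and 251 CPM (−0.02 ± 0.27). Among genes that MSU lowered, 46 of 186 were close, a share not far from that of all tested genes. They were led by the peroxisomal transporter gene Abcd2 at 3.30, 2.02 and 3.42 CPM and 4.62, 3.00 and 1.96 CPM (−0.13 ± 0.39), Tmem37, Susd3, Ttc38 and the diacylglycerol lipase gene Daglb. Without crystals each of those 5 was lower with the drug, by 1.08 to 2.68 on the log2 scale.

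The 7 MSU-raised genes that were higher with the drug included Mt2, the metal-binding metallothionein gene, at 253, 195 and 211 CPM against 22.3, 23.7 and 39.1 CPM (2.95 ± 0.31, adjusted p = 2.7e-06). Sod3, the extracellular superoxide dismutase gene, was at 43.9, 78.5 and 43.9 CPM against 8.78, 5.18 and 12.7 CPM (2.64 ± 0.42), and was at 1.25 CPM in CD38KO non-treated cells. Sod3 lies on chromosome 5, as Cd38 does, but outside the window of 5 Mb around Cd38 examined below. Whether its position has a part in its value was not tested. The antisense gene Gm45774 (3.23 ± 0.36) and the processed pseudogenes Gm7336 and Gm7993 were also higher. Pseudogene reads can come from the parent genes, and no source says whether strand was used in counting, so these 3 are uncertain. Of the MSU-lowered genes, Colec11, a soluble lectin, had the largest value among those higher (3.03, 2.40 and 2.80 CPM against 0, 0.0552 and 0 CPM), and the Wnt pathway gene Frat1 (−4.03 ± 0.68), Tor4a (−3.86 ± 0.34) and the cannabinoid receptor gene Cnr2 (−3.41 ± 0.44) the lowest.

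The drug-to-knockout difference was called as changed between the contrasts with and without crystals for 62 genes. WT replicate 1 also differed in Xist between these contrasts, and the part of that was not tested. Of the 51 genes lower in the difference, 30 were among those MSU raised in WT cells, 35 were called lower under crystals and 22 were called higher without crystals. They included the chemokine genes Cxcl1, Cxcl3 and Cxcl5, the cyclooxygenase gene Ptgs2 (difference −4.71, adjusted p = 0.044), the cross-linking enzyme gene Tgm2, the pentraxin gene Ptx3, the growth factor gene Csf1 and the survival genes Bcl2a1a, Bcl2a1b and Bcl2a1d, whose near-identical sequences can share reads. Olr1, the oxidised-LDL receptor gene, was at 0.784, 0.480 and 0.665 CPM against 8.67, 21.6 and 5.31 CPM under crystals (−4.21 ± 0.53, adjusted p = 1.54e-05) and at means of 0.990 and 0.764 CPM without (difference −4.58, adjusted p = 0.0103). Serpinb2, the plasminogen activator inhibitor type 2 gene, was at 38.8, 75.3 and 39.1 CPM against 23.3, 44.97 and 49.6 CPM under crystals and at means of 92.0 against 3.22 CPM without. Slc7a11, the cystine transporter gene, turned from 1.33 higher without crystals to 1.79 lower with them. The 11 genes higher in the difference included Cnnm3, Dcun1d1, Dglucy, the IL-6 receptor gene Il6ra and the death receptor gene Tnfrsf21. Il6ra was at 51.7, 41.0 and 49.3 CPM against 38.6, 35.9 and 29.5 CPM under crystals and was 1.12 lower on the log2 scale without them.

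The counts of these genes moved with single libraries. The 51 and 11 genes became 139 and 26 without WT + MSU + apigenin replicate 3, 33 and 1 without CD38KO + MSU replicate 3, and 27 and 1 without CD38KO non-treated replicate 2 or replicate 3. The 11 higher genes also became 3 or 4 without WT + MSU + apigenin replicate 1 or 2, 17 without CD38KO + MSU replicate 2, 19 without CD38KO non-treated replicate 1, 6 without WT + apigenin replicate 3, 7 or 5 without WT + MSU replicate 2 or 3 and 4 or 7 without WT non-treated replicate 1 or 2. In a fit of the 4 groups alone 7 genes were lower and 0 higher, and DESeq2 called 260 and 77. By the treatment tag they were 47 and 19, and the difference turned in sign for Osm, Il10, Chac1 and Dcun1d1. By gene, the difference was no longer called in 24 of 32 other settings for Tnfrsf21, 19 of 32 for Ptgs2 and 15 of 31 for Cnnm3. The same held in 13 of 32 for Dglucy, 10 of 32 for Il6ra, 4 of 32 for Acod1 and Cxcl1 and 0 of 32 for Cxcl3. Beside the change of sign by the tag, it held in 10 of 31 for Dcun1d1, 9 of 31 for Il10 and 9 of 32 for Osm.

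Promoter windows of the genes lower in the difference were searched for 8 motifs, and the shares with a match are given beside those of all genes, a description with no test. RefSeq promoters (GRCm38.p6, windows of 300 bases that end shortly past a start) matched 8341 of the tested gene symbols by name, 38 of them lower in the difference. The AP-1 element TGANTCA, searched on both strands, was in at least 1 window of 10 of the 38 genes (26.3%) and 6.23% of all 8341, and 3 of those 10 are the Bcl2a1 paralogues. The NF-κB element GGGNNTTCC was in 26.3% and 8.80% and the C/EBP-ATF element TGATGNAA in 13.2% and 2.76%. Genes that MSU raised, many of which are in this set, had AP-1 matches more often too. Counted by window and not by gene, the AP-1 share was 30.2% for genes lower in the difference and 5.20% for all. It was 13.5% for MSU-raised genes called lower and 12.5% for those not called. The XRE core GCGTG (47.4% and 56.5%), the ARE TGACNNNGC (10.5% and 17.2%), the heat shock element TTCNNGAA (7.89% and 8.39%), the CRE half-site TGACG (39.5% and 36.5%) and the E-box CACGTG (13.2% and 12.3%) followed. A match is a description of letters and not of a bound site. Windows of 5 of these genes are printed because their genes were lower in the difference and hold a match, with the AP-1 match in capitals for Olr1, Serpinb2 and Hilpda and the C/EBP-ATF match for Chac1 and Slc7a11.
Olr1 (chr6:129507116-129507415, minus strand): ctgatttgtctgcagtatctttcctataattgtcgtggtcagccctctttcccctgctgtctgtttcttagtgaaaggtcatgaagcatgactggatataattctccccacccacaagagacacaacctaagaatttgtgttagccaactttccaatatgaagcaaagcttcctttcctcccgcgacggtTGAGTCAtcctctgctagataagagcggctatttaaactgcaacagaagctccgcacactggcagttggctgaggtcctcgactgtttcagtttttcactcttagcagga
Serpinb2 (chr1:107511173-107511472, plus strand): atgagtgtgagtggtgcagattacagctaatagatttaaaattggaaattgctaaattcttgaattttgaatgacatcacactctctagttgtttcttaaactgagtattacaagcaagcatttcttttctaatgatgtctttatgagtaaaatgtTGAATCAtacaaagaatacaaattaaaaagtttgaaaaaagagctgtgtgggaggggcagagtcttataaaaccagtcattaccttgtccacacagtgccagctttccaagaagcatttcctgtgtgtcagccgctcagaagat
Hilpda (chr6:29272238-29272537, plus strand): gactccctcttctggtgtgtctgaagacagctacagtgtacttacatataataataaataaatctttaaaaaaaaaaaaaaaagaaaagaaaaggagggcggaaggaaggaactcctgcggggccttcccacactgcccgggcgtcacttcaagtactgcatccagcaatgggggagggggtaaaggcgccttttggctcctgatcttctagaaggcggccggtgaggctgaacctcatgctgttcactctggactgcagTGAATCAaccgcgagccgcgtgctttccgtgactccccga
Chac1 (chr2:119350992-119351291, plus strand): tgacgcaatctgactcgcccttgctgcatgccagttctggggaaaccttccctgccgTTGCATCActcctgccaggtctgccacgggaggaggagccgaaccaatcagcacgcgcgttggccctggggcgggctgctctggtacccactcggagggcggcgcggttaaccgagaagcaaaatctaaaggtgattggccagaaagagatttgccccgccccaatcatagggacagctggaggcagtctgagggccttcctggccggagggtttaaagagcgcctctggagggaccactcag
Slc7a11 (chr3:50443564-50443863, minus strand): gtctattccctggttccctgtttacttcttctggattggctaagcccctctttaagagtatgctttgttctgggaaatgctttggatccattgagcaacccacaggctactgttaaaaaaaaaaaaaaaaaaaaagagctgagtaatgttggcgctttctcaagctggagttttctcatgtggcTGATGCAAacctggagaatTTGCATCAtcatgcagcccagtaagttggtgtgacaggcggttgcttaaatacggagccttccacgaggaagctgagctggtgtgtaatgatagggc
The Slc7a11 window holds the element in 2 places, once on each strand, and the Chac1 window once, on the strand opposite to the printed one.

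Receptor and immediate response genes were mostly below the knockout. Of 19 tested genes of the Toll-like receptor system, 13 were lower and 0 higher (median −1.97), with 14 lower without crystals, and 7 lower with WT replicate 3 alone. Tlr4, the LPS receptor gene, was at 3.08, 3.74 and 7.92 CPM against 57.4, 53.6 and 44.6 CPM (−3.40 ± 0.52, adjusted p = 7.75e-05), and its adaptor genes Tirap (−3.71 ± 0.50) and Ticam2 (−4.05 ± 0.53) were lower without overlap. Of 16 MAPK feedback genes, 12 were lower and 1 higher (median −2.42), and 9 and 0 with WT replicate 3 alone. Dusp1, a phosphatase of p38 and JNK, was at 8.84, 8.31 and 30.2 CPM against 266, 307 and 311 CPM (−4.22 ± 0.55, adjusted p = 2.08e-05), and Dusp4, Dusp10 and the ERK inhibitor gene Spry2 were lower by 4.06 to 5.26 on the log2 scale. Of 24 early response transcription factor genes, 13 were lower and 2 higher (median −1.28). Atf3 was at 35.0, 58.8 and 185 CPM against 1042, 1501 and 1316 CPM (−3.79 ± 0.63), and Klf6 at 15.2, 23.0 and 112 CPM against 682, 792 and 642 CPM (−3.82 ± 0.68). WT + MSU + apigenin replicate 3 was the highest of its group for Dusp1, Atf3 and Klf6, and with replicate 3 as the only WT library the list had 5 genes lower and 4 higher.

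Of 20 NF-κB subunit and inhibitor genes, 10 were lower and 0 higher (median −1.11), with 7 lower without crystals and, with WT replicate 3 alone, 8 lower and 1 higher. Tnip3, an inhibitor of NF-κB activation, was at 11.4, 6.39 and 20.7 CPM against 201, 219 and 204 CPM (−4.02 ± 0.44, adjusted p = 4.37e-06), and Rel, the c-Rel subunit, at 3.46, 4.76 and 12.3 CPM against 50.4, 96.1 and 50.5 CPM (−3.26 ± 0.45). Of 31 interferon-stimulated genes, 17 were lower and 0 higher (median −1.43), and 8 lower and 2 higher without crystals. Ifit1 was at 4.22, 5.59 and 2.88 CPM against 56.0, 399.7 and 61.6 CPM (−5.35 ± 0.94, adjusted p = 0.000253), and Rsad2, the viperin gene, at 8.81, 19.9 and 5.59 CPM against 115, 679.5 and 100.4 CPM (−4.70 ± 0.89). CD38KO + MSU replicate 2 was far above the other 2 for these genes, and the groups did not overlap with or without it. Trex1, the exonuclease that clears cytosolic DNA, was at 0, 0.564 and 0 CPM against 28.4, 136 and 63.4 CPM (−8.60 ± 1.15, adjusted p = 2.39e-05), and had the lowest log2FC of all called genes with no overlap and a mean of at least 10 CPM in the higher group.

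Of 17 inflammasome genes, 6 were lower and 1 higher (median −0.78), and 3 and 0 with WT replicate 3 alone. Nlrp3, the sensor, was at 27.1, 37.7 and 18.2 CPM against 32.8, 94.6 and 41.8 CPM (−1.03 ± 0.36, adjusted p = 0.024), in overlapping ranges, and the call was lost in 9 of 32 other settings. Casp1, the protease that cleaves pro-IL-1β, was at 26.8, 32.6 and 30.9 CPM against 133, 183 and 124 CPM (−2.28 ± 0.19, adjusted p = 4.93e-07), without overlap. Nlrc4, another sensor, was lower (−1.71 ± 0.31) and Nlrp1b higher (1.43 ± 0.49). The metalloreductase gene Steap4 (−2.25 ± 1.45), the cholesterol 25-hydroxylase gene Ch25h (−1.61 ± 0.85) and the orphan receptor gene Gpr176 (−0.45 ± 2.21) were not called. Gpr176 ranged from 0.0417 to 23.9 CPM within the drug group alone.

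Survival and stress pathways were split. Of 18 BCL2 family genes, 9 were lower and 2 higher (median −1.21, and 0.12 without crystals). Mcl1, a short-lived survival protein, was at 46.0, 57.8 and 177 CPM against 1169, 1397 and 1177 CPM (−3.74 ± 0.48, adjusted p = 1.9e-05), Bcl2l1 was lower (−3.25 ± 0.35) and the death effector gene Bok higher (2.21 ± 0.71). Of 19 p53 target genes, 6 were lower and 1 higher (median −0.47), 10 and 0 by library totals and 4 and 3 with WT replicate 3 alone. The largest value was that of Mdm2, the p53 ubiquitin ligase (7.89, 6.26 and 49.5 CPM against 340.2, 636 and 376 CPM, −4.41 ± 0.64). Of 26 heat shock genes, 9 were lower and 5 higher (median −0.04, 0.08 with upper-quartile scaling), and 11 lower and 2 higher by library totals (median −0.63). Bag3, a co-chaperone, was at 12.4, 10.9 and 13.6 CPM against 111, 104 and 113 CPM (−3.15 ± 0.17, adjusted p = 2.92e-08), whereas the small heat shock genes Hspb1 (3.55 ± 0.87) and Cryab (3.23 ± 0.46), which mesenchymal cells also express, were higher. Of 30 ATF4 and tRNA synthetase genes, 9 were lower and 6 higher (median −0.32), among the lower ones the pseudokinase gene Trib3 (−5.35 ± 0.89) and Cebpb (−3.71 ± 0.38). Of 25 NRF2 and glutathione genes, 6 were lower and 4 higher (median 0.39, −0.20 by library totals). These shares, 24% and 16%, were near those of all tested genes (24.7% and 16.7%). Hmox1, the haem oxygenase, was at 179, 199 and 208 CPM against 849, 1085 and 1035 CPM (−2.34 ± 0.22, adjusted p = 1.26e-06), and Me1, malic enzyme, was higher (2.61 ± 0.55). Of 9 aryl hydrocarbon receptor genes, 3 were higher and 3 lower (median −0.07, 0.08 by upper-quartile scaling), and 1 higher and 4 lower by library totals (median −0.67). The receptor gene Ahr was lower (−2.41 ± 0.49), its target Cyp1b1 higher at 120.1, 212 and 114 CPM against 29.9, 34.7 and 48.0 CPM (1.99 ± 0.70), and its target Tiparp lower (−2.83 ± 0.90). The call of Cyp1b1 was lost in 8 of 32 other settings and that of Tiparp in 5 of 32.

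Mitochondrial, glycolysis and sterol synthesis genes were more often above than below the knockout under TMM scaling, and by library totals only the mitochondrial ones. All 13 genes of the mitochondrial genome were higher (median 2.39), as without crystals (13, median 1.77), and 11 were higher by library totals. The respiratory subunit gene mt-Nd5 was at 11310.0, 12119 and 8279 CPM against 999.6, 2202 and 963 CPM (2.93 ± 0.40, adjusted p = 2.75e-05). Mitochondrial genes took 11.1% to 13.3% of the counts with the drug and 3.50% to 4.12% in the knockout, and a fit with those genes left out of the scaling called 2027 genes higher and 2953 lower. Of 35 respiratory chain genes of the nucleus, 2 were higher and 0 lower (median 0.47, −0.12 by library totals), and 19 were close. Of 26 glycolysis and hypoxia genes, 10 were higher and 4 lower (median 0.82, 0.22 by library totals), with 3 higher and 7 lower by library totals. Pfkl, the liver-type phosphofructokinase gene, was higher (147, 237 and 127 CPM against 30.5, 50.5 and 42.5 CPM, 2.05 ± 0.29). Lower were the angiogenic factor gene Vegfa (−2.08 ± 0.32), the hexokinase gene Hk2 (−2.46 ± 0.32), Ankrd37 and Pfkfb3. The Pfkfb3 call was lost in 22 of 32 other settings, and those of Vegfa and Hk2 in 0.

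Of 29 cholesterol and fatty acid synthesis genes, 13 were higher and 3 lower under crystals (median 0.94), and 2 higher and 9 lower without (median −0.12), but 0 were called in the difference of the contrasts. Scd1, the stearoyl-CoA desaturase, was at 50.3, 81.8 and 36.8 CPM against 3.68, 6.17 and 4.99 CPM (3.51 ± 0.60, adjusted p = 0.000211). Hmgcs1, an early enzyme of the pathway, was lower without overlap (−3.16 ± 0.54). By library totals the list had 4 higher and 6 lower. Of 24 LXR and lipid-handling genes, 7 were lower and 2 higher (median −0.69), including the lipid droplet coat gene Plin2 at 102, 74.3 and 143 CPM against 1430.0, 1368 and 1607 CPM (−3.78 ± 0.36) and the fatty acid carrier gene Fabp4 (−3.97 ± 0.44). The shares of this list were 29.2% lower and 8.33% higher, against 24.7% and 16.7% of all tested genes. Of 34 lysosome and V-ATPase genes, 8 were higher and 10 lower (median 0.64), with the cathepsin gene Ctsh higher (1.72 ± 0.42) and Tfeb, the transcription factor of lysosome genes, lower (−2.90 ± 0.32). Of 16 iron-handling genes, 4 were higher, ceruloplasmin (Cp, 1.96 ± 0.39) among them, and 5 lower (median 0.38, −0.19 by library totals).

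**Figure D4:**
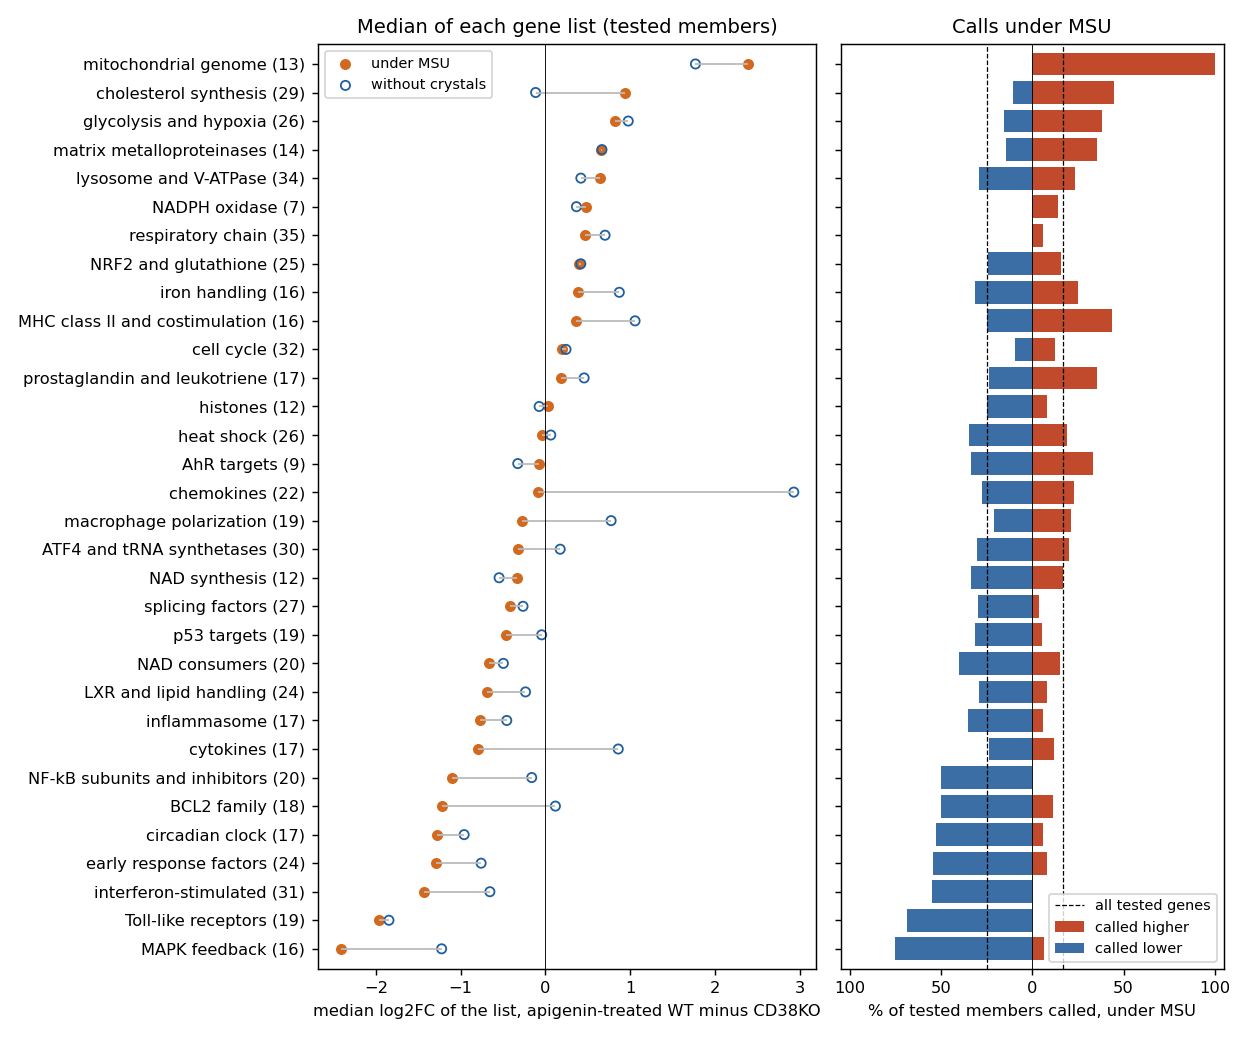
Left, median log2FC of each gene list (tested members in parentheses), apigenin-treated WT minus CD38KO, under MSU (filled) and without crystals (open). Right, percent of tested members called higher (to the right) and lower (to the left) under MSU, with dashed lines at the 16.7% and 24.7% of all tested genes. The medians under MSU include −2.42 for MAPK feedback, −1.97 for Toll-like receptor and −1.43 for interferon-stimulated genes, and 2.39 for the 13 mitochondrial genes.

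Antigen presentation, polarization and matrix genes went both ways. Of 16 MHC class II and costimulation genes, 7 were higher and 4 lower (median 0.36, −0.22 by library totals). H2-DMb2, a peptide-loading chaperone, was at 33.4, 31.3 and 32.8 CPM against 7.34, 5.83 and 8.65 CPM (2.16 ± 0.29), while Ciita, the master regulator of the class, was lower (−2.90 ± 0.61) and Cd274, the PD-L1 gene, was at 35.2, 38.4 and 59.1 CPM against 326, 765 and 277 CPM (−3.37 ± 0.44). Of 19 polarization genes, 4 were higher and 4 lower (median −0.28), the lectin gene Mgl2 among the higher (2.60 ± 0.47) and the interferon factor gene Irf8 among the lower (−2.67 ± 0.36). Of 14 matrix metalloproteinase and inhibitor genes, 5 were higher and 2 lower (median 0.66), with Timp1 at 751, 1344 and 673 CPM against 50.1, 55.5 and 163 CPM (3.36 ± 0.51). Mmp2 (4.30 ± 0.69) and Timp1 are products of fibroblasts too, whose markers were higher in the same libraries, and their source was not tested. Of 17 prostaglandin and leukotriene genes, 6 were higher and 4 lower (median 0.18, −0.38 by library totals). Ltc4s, the leukotriene C4 synthase gene, was higher (2.93 ± 0.67), and the prostaglandin receptor genes Ptgir (−4.50 ± 0.42) and Ptger2 (−4.41 ± 0.95) were lower.

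Of 17 circadian clock genes, 9 were lower and 1 higher (median −1.27), including Bhlhe41 (−4.84 ± 0.62) and the repressor gene Nr1d2 (−2.69 ± 0.26). Of 27 splicing factor genes, 8 were lower and 1 higher (median −0.42), including Srsf1 (−2.84 ± 0.39) and Srsf3 (−1.69 ± 0.18), and 11 were close. The splicing shares were 29.6% lower and 3.70% higher, against 24.7% and 16.7% of all tested genes. Of 32 cell cycle genes, 4 were higher, Ccnd2 (2.31 ± 0.41) among them, and 3 lower (median 0.19, −0.37 by library totals), with the S-phase cyclin gene Ccne2 lowest (−5.24 ± 0.83). Of 12 histone genes, 1 was higher and 3 lower (median 0.03, −0.56 by library totals), and of 7 NADPH oxidase genes, 1 was higher, the GTPase gene Rac2 (1.25 ± 0.20), and 0 lower (median 0.47, −0.11 by library totals). With WT replicate 3 alone the counts higher and lower were 3 and 2 for MHC class II, 2 and 2 for polarization, 1 and 3 for cell cycle, 1 and 4 for splicing, 2 and 3 for iron handling, 4 and 3 for NRF2, 3 and 8 for ATF4, 2 and 1 for aryl hydrocarbon receptor, 9 and 1 for cholesterol synthesis, 4 and 0 for matrix metalloproteinase and 0 and 6 for clock genes.

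The largest single differences were taken among called genes with no overlap and a mean of at least 10 CPM in the higher group. Below the knockout, beside Trex1, Osm, Acod1 and Hilpda, were the POU-domain factor gene Pou3f1 (−7.23 ± 1.27), the pyruvate dehydrogenase phosphatase gene Pdp1 at 1.11, 1.09 and 0.606 CPM against 56.6, 66.4 and 51.1 CPM (−5.96 ± 0.64), the cyclin F gene Ccnf (−5.86 ± 0.92), Fam83f (−6.22 ± 1.62) and the non-coding genes G530011O06Rik and Gm30329, the latter antisense and uncertain without strand. Slfn8, a Schlafen family gene, was at 0.973, 0.710 and 1.08 CPM against 50.2, 125 and 33.0 CPM (−6.24 ± 0.72), and it stood at no more than 5.07 CPM in any of the 12 WT libraries and at 19.5 CPM or more in all 6 CD38KO libraries. Above the knockout, beside Cd38 and Xist, were the matrix genes Postn (289, 355 and 102 CPM against 2.25, 8.28 and 1.46 CPM, 5.96 ± 1.11) and Svep1 (19.1, 34.3 and 3.72 CPM against 0.197, 0.442 and 0.154 CPM), the smooth muscle gene Cnn1 (5.90 ± 1.71), Fstl3, the synaptotagmin gene Syt13, the lectin gene Cd209a (5.77 ± 1.34) and the antisense gene 2900060B14Rik at 14.8, 13.5 and 13.3 CPM against 0.148, 0.0552 and 0 CPM. The pseudogenes Gm8210 (2.50 to 346 CPM inside the drug group), Gm6344 and Gm14036 were lowest in replicate 3 each time. For Postn, Svep1 and Cnn1 replicate 3 was also the lowest of the drug group, as for the fibroblast markers.

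Called genes also differed in structure, by the GENCODE M21 annotation that all gene IDs matched. Among 10297 protein-coding genes, those with 1 to 2 exons (573) had 53.1% lower and 9.08% higher, those with 3 to 5 exons 34.3% and 13.3%, those with 6 to 10 exons 25.4% and 15.5%, those with 11 to 20 exons 24.9% and 14.1%, and those with over 20 exons 17.7% and 18.7%. Without crystals the lower share went from 46.2% with 1 to 2 exons to 20.2% with over 20. Of 259 tested zinc finger genes named Zfp, Zbtb or Zscan, which encode DNA-binding repressors in the main, 167 were lower and 1 higher (median −1.95, −1.80 without crystals). Their summed level was 1820 to 2324 CPM with the drug and 4373 to 5540 CPM in the knockout, without overlap. Processed pseudogenes went the other way, with 359 of 1131 (31.7%) higher and 31 (2.74%) lower, and a sum of 24594 to 26861 CPM against 9721 to 13308 CPM. Reads on them can come from their parent genes. Both medians kept their sign under each scaling (−2.55 to −1.82 and 0.33 to 1.04), but by library totals 69 pseudogenes were called higher and 76 lower. Lower protein-coding genes had a median GC content of 48.5% and exonic length of 4593 bases, higher ones 52.5% and 3680 bases, and all tested ones 49.7% and 4306 bases.

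**Figure D5:**
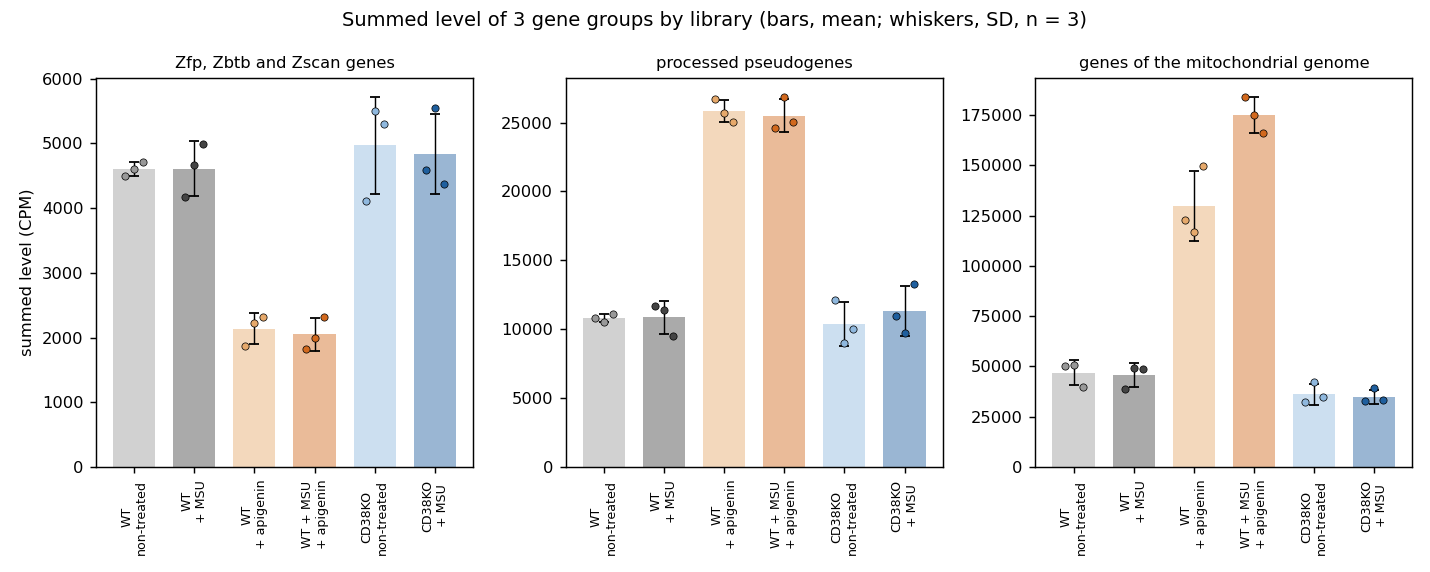
Summed level in CPM of the zinc finger genes, processed pseudogenes and genes of the mitochondrial genome in each group, bars for means, whiskers for SD and points for the 3 libraries. The zinc finger sum is lower and the other 2 sums are higher in both apigenin groups than in the 4 groups without apigenin.

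The neighbourhood of Cd38 on chromosome 5 was examined because a knockout allele can carry flanking sequence of the strain in which it was made. Of 14 tested genes that start within 5 Mb of Cd38, 5 were called (35.7%, against 41.4% of all genes): Gm4754 (1.53 ± 0.60) and the dihydropteridine reductase gene Qdpr (1.12 ± 0.34) higher, and Cpeb2 (−1.56 ± 0.54), the iron-sensing ligase gene Fbxl5 (−1.17 ± 0.28) and Bod1l (−1.17 ± 0.32) lower. Qdpr was at 154, 159 and 182 CPM against 95.5, 89.2 and 43.0 CPM. These calls hold drug and genotype together. In CD38KO + MSU against WT + MSU, where no drug was given, the same 5 genes were not called. Of the 14 neighbours only Bst1 was called there, above WT + MSU in CD38KO + MSU (log2FC 1.301, adjusted p = 0.000175). Whether flanking sequence has a part in this was not tested. Genes that led the contrast without crystals varied within groups under them. The serpin gene Serpina3n (9.76, 25.8 and 0 CPM against 0.0983, 0 and 0 CPM) and the UDP-glucuronosyltransferase gene Ugt1a1 (54.4, 0.188 and 0 CPM against 0, 0.0552 and 0 CPM), which shares exons with its neighbours, were called higher under crystals. Both stood at 0 in replicate 3, and Ugt1a1 rested on replicate 1. Rsc1a1 (0.189, 10.00 and 0.196 CPM against 25.8, 22.7 and 0.0898 CPM), Gm27029, Gm21982 and Zbtb9, whose only counts under crystals were in CD38KO + MSU replicate 1, were not called under crystals, and the pseudogene Gpr137b-ps was lower (−4.17 ± 0.73).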

How the data were processed

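Poly(A) RNA libraries of 18 BMDM cultures in 6 groups of 3 were used, grouped by title. Per the labels, the tools in the submitters' processing notes are HISAT2 and StringTie after cutadapt and FastQC, with edgeR. The sources used here give neither the genome build nor whether strand was used in counting. The authors deposited 1 table of raw counts per gene and, beside the counts, FPKM, which is scaled for gene length and depth and was used here as a filter and in an alternative test. Genes without counts are listed at an FPKM of 1e-04. A second deposited table of the authors' log2 ratios between groups holds their own comparisons and was not used, and 0 columns were left without a sample. Gene IDs were matched to GENCODE M21 (55450 of 55450), and Myl12b is 1 of 421 names that stand for more than 1 ID.

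Counts of genes reaching an FPKM of 1 in 3 or more libraries were tested with edgeR 4.0.16 in R 4.3.3 (TMM, quasi-likelihood, 6 groups in 1 fit, no covariate). The SE is the size of the log2FC over the root of the F statistic, and intervals are 95% intervals of the log2FC. Calls need a Benjamini-Hochberg adjusted p under 0.05 over all tested genes and an absolute log2FC of 1 or more. No 2 libraries of either compared group were copies of each other by their counts. The study calls the libraries of a group biological replicates, and no source used here says whether each came from a separate mouse, so p-values measure the spread between these libraries. Lower bounds against groups at 0 use a floor of 3 counts per library and cover counting error only. The steps were tested on simulated data. Alternatives were RLE, upper-quartile and library-total scaling, mitochondrial genes left out of the scaling, DESeq2 1.42.0, glmTreat, limma 3.58.1 on log2(FPKM + 0.5) and log2(FPKM + 0.1), other FPKM filters, the compared groups alone, a replicate block, WT replicate 3 alone, the treatment tag for the apigenin libraries and each library left out. The count of MSU genes with the set kept and WT replicate 3 alone was added after seeing the data.

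The members and gene lists were chosen with earlier results of these data known. Genes were named by rule: 11 genes of interest, the 12 largest and 12 smallest differences among called genes with no overlap and at least 10 CPM, up to 4 called members of each list, the 5 largest and smallest in the contrast without crystals, in the difference and among MSU-responsive genes, the 5 close genes with the largest MSU response, the 4 most abundant markers of each marker list and called genes near Cd38. Some genes that the rule names are not reported here. Genes outside the rule were named after their values were seen: other genes of the difference (Cxcl5, Tgm2, Ptx3, Csf1, Bcl2a1a, Bcl2a1b, Bcl2a1d, Serpinb2, Slc7a11), Ifi202b, Gbp2b, Cd1d2, Bst1, Sirt2, Ankrd37, Pfkfb3 and the zinc finger, pseudogene and exon groups. Promoter sequences are from RefSeq.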

Additional observations from a re-analysis of the deposited data

Results flagged for a closer look

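The difference between the contrast under MSU and the contrast without crystals was called for 11 genes higher and 51 lower (edgeR's quasi-likelihood test of the interaction, Benjamini-Hochberg adjusted over 12025 genes, n = 3 libraries a group). Among the named genes, the differences on the log2 scale were −7.01 for Acod1, −5.93 for Cxcl3, −4.80 for Hilpda, −4.71 for Ptgs2, −4.63 for Cxcl1, −4.58 for Olr1 and −4.37 for Osm. For Chac1 (−10.08) and Il10 (−7.83) the fitted differences stand against drug libraries at 0 and are no bound. On the other side they were 2.49 for Cnnm3, 1.83 for Dcun1d1, 1.59 for Dglucy, 1.57 for Il6ra and 1.26 for Tnfrsf21. The calls of Tnfrsf21, Ptgs2, Cnnm3 and Dglucy were lost in 24 of 32, 19 of 32, 15 of 31 and 13 of 32 other settings. Those of Il6ra, Dcun1d1, Il10 and Osm were lost in 10 of 32, 10 of 31, 9 of 31 and 9 of 32. For Dcun1d1, Il10 and Osm the sign also turned in 1 more setting, the treatment tag. Groups of 3 libraries were not searched for outlying samples.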

How the results depend on the processing

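Over all alternatives 0 of the 4975 calls of the comparison became calls in the opposite direction. Counts are given as higher and lower under crystals (2003 and 2972), without crystals (1931 and 2719), in the difference (11 and 51), among MSU-raised genes (7 and 139) and among MSU-lowered genes (39 and 47). Library totals gave 776 higher, 890 and 4248 without crystals, 6 higher in the difference, 3 MSU-raised genes higher, and 11 higher and 84 lower MSU-lowered genes. DESeq2 gave 77 higher and 260 lower in the difference and 17 MSU-raised genes higher. limma on log2(FPKM + 0.5) gave 676 higher, 772 higher without crystals, 4 MSU-raised genes higher, and 7 higher and 74 lower MSU-lowered genes. limma on log2(FPKM + 0.1) gave 810 higher, 873 and 4207 without crystals, 4 higher in the difference, 3 MSU-raised genes higher, and 11 higher and 90 lower MSU-lowered genes. Without the FPKM filter 5 genes were higher in the difference, 4 MSU-raised and 21 MSU-lowered genes higher, and at an FPKM of at least 5 there were 1196 higher, 1807 lower, 1071 and 1620 without crystals and 24 MSU-lowered genes higher, where fewer genes were tested. The compared groups alone gave 0 higher and 7 lower in the difference and 3 MSU-raised genes higher. glmTreat, which tests against the fold threshold, gave 841 higher, 1852 lower, 873 and 1487 without crystals, 0 and 14 in the difference, 0 and 10 MSU-raised and 0 and 0 MSU-lowered genes. WT replicate 3 alone gave 21 higher in the difference, 1527 close genes against 2485, and, since MSU itself was then called for few genes, 1 and 5 MSU-raised and 2 and 0 MSU-lowered genes. The treatment tag gave 19 higher in the difference. The share of higher genes among the calls was 40.3% under TMM, 14.9% by library totals, 15.3% and 15.9% by limma, 31.2% by glmTreat, 44.8% by RLE and 46.8% by upper-quartile scaling. With 1 library left out, the counts ranged from 1719 to 2155 higher and 2732 to 2998 lower, 1664 to 2109 and 2441 to 2784 without crystals, 1 to 26 and 27 to 139 in the difference, 4 to 9 and 61 to 154 among MSU-raised, 19 to 43 and 11 to 52 among MSU-lowered, and 2074 to 2577 close. The MSU sets themselves shrank without a WT + MSU or WT non-treated library, and the share of MSU-raised genes called lower stayed at 45.9% to 58.9%. WT replicate 3 alone turned the log2FC of Lcn2 to −0.28, Serpina3n to −4.41, Ugt1a1 to −3.52 and Camp and Myl12b to 0, the last 4 with that library at 0 and the knockout at or near 0, so that no fold can be given. The tag turned the difference of Osm to 0.14, Il10 to 6.68, Chac1 to 4.69 and Dcun1d1 to −1.94. The cause was not tested. Replicate numbers are shared by label only. Same-numbered libraries of the 2 groups correlated at 0.07, 0.02 and 0.06 under crystals, and CD38KO + MSU replicate 2 correlated best with another number. A replicate block gave 2047 higher and 3067 lower, 13 and 61 in the difference, 10 and 164 MSU-raised and 45 and 55 MSU-lowered genes. Depth limits the genes at 0, 44 in the drug group, of which 39 lay above the floor, and 21 in the knockout, of which 20 did.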
